A study of Mus musculus with 25 samples.

Results

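Axon guidance genes encode secreted or membrane-bound ligands and the receptors that read them. A list of 41 such genes was followed through 5 embryonic mesenchymes: 25 ligands (20 semaphorins, 3 Slits and 2 netrins) and 16 receptors (9 plexins, 2 neuropilins, 2 Robos and 3 netrin receptors). The members were matched by their Ensembl identifiers to a count table of 35880 genes, and no value in the table entered the rule, although the list was drawn up with earlier results of these data known. All 41 were found, and all 41 passed the expression filter that left 17657 genes to test.

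The RNA came from C57Bl/6JOlaHsd mouse embryos, with 5 pools for each of 5 tissues and 25 libraries in all. E13.5 MM is the mammary mesenchyme around the quiescent bud and E16.5 MM the one around the sprouted gland. E16.5 FP is the precursor of the mammary fat pad, while E13.5 SM and E13.5 VM are the mesenchymes of the salivary gland and of ventral skin away from the mammary region. No sample carried a transgene or a treatment, and the sex is given only for the E16.5 pools, which were female. Each pool held tissue of 2 to 3 embryos of 1 litter after enzymatic removal of the epithelium, and the 5 pools of a tissue came from 3 litters, so p-values measure the spread between pools of which some share a litter. The sources used here do not give which pools shared a litter.

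Semaphorins act mainly through plexins. The secreted class 3 semaphorins mostly need a neuropilin beside the plexin, whereas the membrane-bound classes bind plexins directly. Slits act through Robo receptors and are best known for keeping axons and migrating cells away from a territory, and netrins attract through Dcc and repel through the Unc5 receptors. In developing glands the same molecules steer the nerves and vessels that grow into the mesenchyme and also act on epithelium and stroma directly.

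Total counts ran from 20678150 to 34448304 per library, with a median of 26370369. Values below are normalized counts (counts scaled with TMM factors, which correct for library composition, to the mean effective library size of 26544648), given pool by pool for the members with the largest changes, with n = 5 pools per tissue. Fold changes are on the log2 scale, and the value after ± is their standard error (SE) from edgeR's quasi-likelihood test. After a level, ± gives the SD over the 5 pools. A call of higher or lower needed 3 things: an adjusted p under 0.05, a fold change past 0.58 on the log2 scale in either direction, and more than 50 normalized counts on average in the tissue with more. Levels of different genes were compared only per length, as CPM (counts scaled to a common library total) per kb of exon. In bulk tissue, fewer cells of a type and less RNA per cell cannot be told apart. The 12 mesenchyme markers Col1a1, Col1a2, Col3a1, Pdgfra, Pdgfrb, Twist1, Twist2, Vim, Prrx1, Dcn, Lum and Postn were above 0 in every tissue, and their summed level ran from 14077 CPM in the lowest E13.5 SM library to 54921 CPM in the highest E16.5 MM library. The 4 comparisons share samples, since E13.5 MM stands in 3 of them and E16.5 MM in 2, so their values are given side by side and are not independent.

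The stretches upstream of the annotated start of 6 members with large differences between tissues are shown first, as the sequence context of genes that moved in opposite directions. They come from the RefSeq promoter table on GRCm38.p6, which held 33 of the 41 members. Sema3b, Sema3f, Sema6a, Plxna1, Plxna4, Slit1, Ntn1 and Dcc had no entry there. Each is the 218-base stretch at the 5′ end of the window, read on the gene's own strand, and lies outside every exon of the GENCODE M21 annotation. Nrp1 (chr8:128358823-128359040, plus strand) and Ntn4 (chr10:93640799-93641016, plus strand) lay inside the span of the annotated gene, and Nrp2 (chr1:62703067-62703284, plus strand), Plxnc1 (chr10:94944878-94945095, minus strand), Robo2 (chr16:74411858-74412075, minus strand) and Slit2 (chr5:47982905-47983122, plus strand) lay before it. The genes are Nrp1 (ENSMUSG00000025810, chr8:128358604-128503363), Nrp2 (ENSMUSG00000025969, chr1:62703285-62818695), Plxnc1 (ENSMUSG00000074785, chr10:94790866-94944835), Robo2 (ENSMUSG00000052516, chr16:73891839-74411825), Slit2 (ENSMUSG00000031558, chr5:47983138-48307733) and Ntn4 (ENSMUSG00000020019, chr10:93640681-93747207), with GENCODE M21 spans on the same build. Capitals mark the GC box GGGCGG on either strand.
Nrp1: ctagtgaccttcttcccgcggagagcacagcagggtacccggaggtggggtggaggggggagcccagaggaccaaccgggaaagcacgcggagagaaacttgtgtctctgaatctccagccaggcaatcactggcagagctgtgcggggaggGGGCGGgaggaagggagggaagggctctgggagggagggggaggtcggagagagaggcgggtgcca
Nrp2: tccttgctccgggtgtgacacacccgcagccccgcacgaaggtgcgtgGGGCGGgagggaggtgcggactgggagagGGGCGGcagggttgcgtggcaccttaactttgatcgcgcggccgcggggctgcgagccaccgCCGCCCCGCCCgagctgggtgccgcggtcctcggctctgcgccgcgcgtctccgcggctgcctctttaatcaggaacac
Plxnc1: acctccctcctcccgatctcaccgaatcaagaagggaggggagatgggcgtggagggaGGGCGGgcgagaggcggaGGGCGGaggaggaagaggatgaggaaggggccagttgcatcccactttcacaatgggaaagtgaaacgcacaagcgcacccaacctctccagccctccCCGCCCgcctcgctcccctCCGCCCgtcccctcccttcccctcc
Robo2: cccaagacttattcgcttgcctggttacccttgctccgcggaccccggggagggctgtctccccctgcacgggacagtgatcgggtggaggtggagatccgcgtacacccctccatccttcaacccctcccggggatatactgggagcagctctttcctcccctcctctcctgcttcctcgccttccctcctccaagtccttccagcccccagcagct
Slit2: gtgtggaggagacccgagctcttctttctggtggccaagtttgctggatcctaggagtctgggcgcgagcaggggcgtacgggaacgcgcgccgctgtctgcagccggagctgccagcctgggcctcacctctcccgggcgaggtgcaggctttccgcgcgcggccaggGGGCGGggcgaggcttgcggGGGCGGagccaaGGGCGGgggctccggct
Ntn4: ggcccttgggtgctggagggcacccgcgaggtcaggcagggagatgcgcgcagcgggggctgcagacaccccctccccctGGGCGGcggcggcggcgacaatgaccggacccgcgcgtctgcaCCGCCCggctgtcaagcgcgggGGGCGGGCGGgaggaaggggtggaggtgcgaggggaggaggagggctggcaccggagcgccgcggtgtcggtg
The Nrp2, Plxnc1 and Ntn4 stretches each held 4 GC boxes, with overlapping matches counted separately, Slit2 held 3, Nrp1 held 1 and Robo2 held 0. Over the table, 28.2% of 32817 promoter stretches of this length held a GC box, against 26 of the 46 stretches of the members. TATAAA, searched on both strands, was in 9.87% of all stretches and in 0 of the 46, and CCAAT was in 30.8% of all and in 7 of the 46. Every stretch stops short of the annotated start, and the bases next to the start were not searched. These counts therefore cannot tell whether a promoter has a TATA box there. The GC content of the 6 stretches ran from 63.8% in Robo2 to 77.5% in Ntn4, against a median of 51.8% over all stretches. Robo2 has 3 starts in the table, and the one nearest to the annotated gene start is shown. These matches are letters in a window and were not tied to any tissue.

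**Figure D1:**
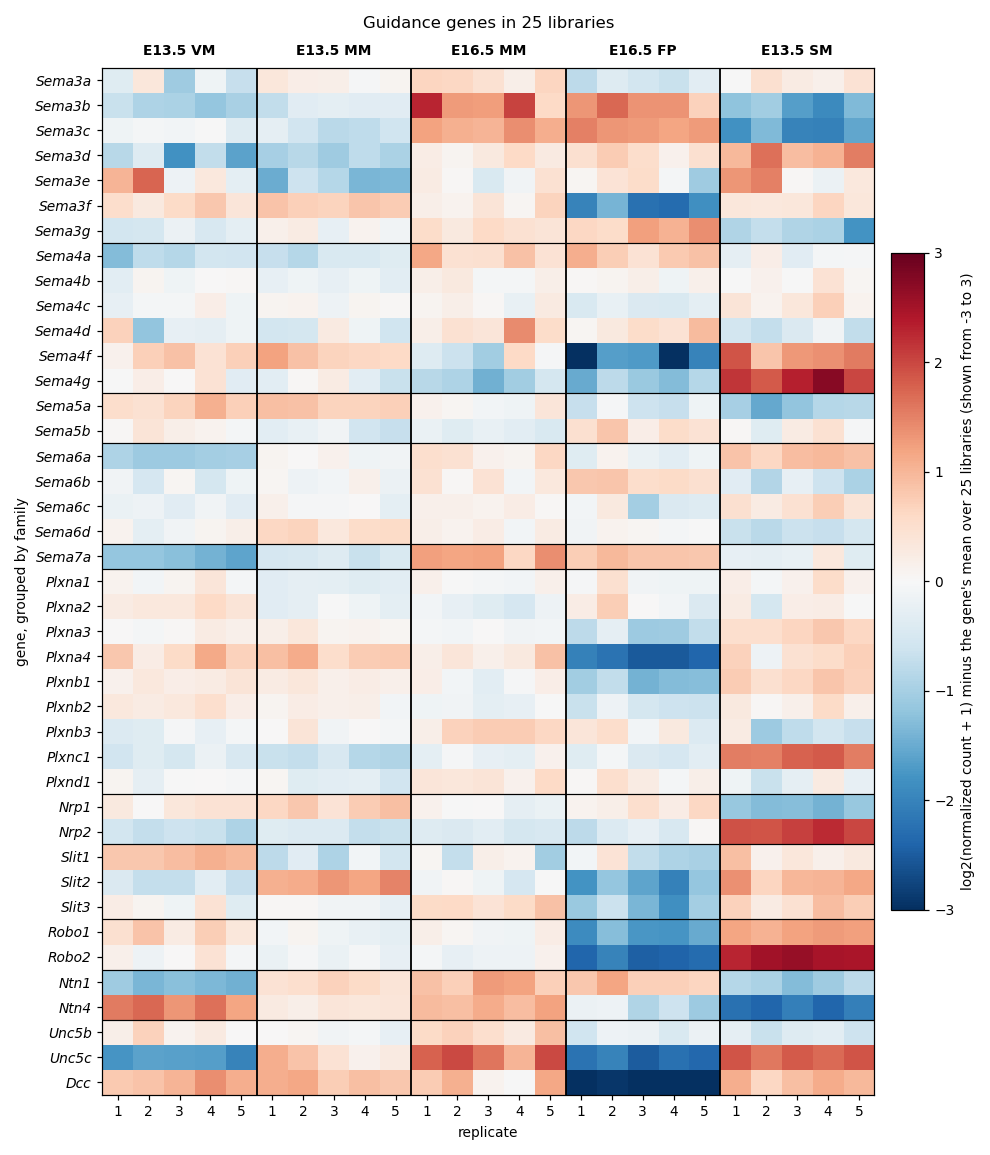
Heat map of the 41 guidance genes (rows, grouped by family) in 25 libraries (columns, 5 replicates per tissue); colour gives log2(normalized count + 1) minus the gene's mean over the 25 libraries. Robo2, Nrp2, Plxnc1 and Sema4g stand out as high in all 5 E13.5 SM libraries, and Dcc, Unc5c, Plxna4 and Sema3f as low in all 5 E16.5 FP libraries. Unc5c is low in the E13.5 VM libraries as well.

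Mammary and salivary mesenchyme of the same age differed in both ligands and receptors. E13.5 MM held more Nrp1, Sema5a, Ntn1 and Ntn4 than E13.5 SM, whereas E13.5 SM held more Robo2, Robo1, Nrp2 and Plxnc1. Called higher in E13.5 MM were 8 of 41 members (19.5%), where 14.5% of all tested genes were called higher, and 10 of 41 (24.4%) were called lower, where 15.6% of all tested genes were. The median log2 fold change was -0.32 over the members and 0.03 over all genes tested. Of the 16 receptors, 1 was higher and 5 were lower, and of the 25 ligands 7 were higher and 5 lower. Markers of other cell types moved along with these tissues: of 12 neuron markers 9 were lower and 1 higher in E13.5 MM, with a summed level of 46.8 to 56.8 CPM in E13.5 MM and 328 to 409 CPM in E13.5 SM. All 12 leukocyte markers and 7 of 12 endothelium markers were higher in E13.5 MM, with summed levels of 388 to 449 CPM against 88.4 to 117 CPM and of 789 to 974 CPM against 539 to 625 CPM. E13.5 SM libraries held 748 to 957 CPM of Nrp2, 628 to 783 CPM of Robo2 and 112 to 139.8 CPM of Plxnc1. These values are not scaled for gene length, so they are not compared with each other or with the marker sums. The mesenchyme sum was 18425 to 23504 CPM in E13.5 MM and 14077 to 16832 CPM in E13.5 SM, with 6 of 12 markers higher and 1 lower. The fat markers summed to 70.6 to 125 CPM and 179 to 208 CPM, with Adipoq listed at 0 in E13.5 SM, and the epithelium markers to 6.46 to 18.5 CPM and 20.9 to 29.0 CPM. Of 6 fat markers 1 was higher in E13.5 MM (Pparg) and 1 lower (Lpl), with a median log2 fold change of 0.60. Of 12 epithelium markers 0 were higher and 2 lower (Epcam and Trp63), with a median of 0.76, so neither sum stands for its whole list. Of 8 glia markers 3 were higher and 1 lower, and of 12 muscle markers 1 was higher and 0 lower. The part of these cell types in the results was not tested.

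Mammary mesenchyme and ventral skin mesenchyme of the same age differed in 10 of the 41 members. Slit2, Ntn1 and Unc5c were higher in E13.5 MM, each in every library, and Ntn4, Sema3e and Robo1 were lower. Called higher were 5 of 41 members (12.2%) against 3.79% of all tested genes, and called lower were 5 of 41 (12.2%) against 2.66%. The median log2 fold change was 0.07 over the members and -0.01 over all genes. No marker of endothelium, glia, leukocytes, epithelium or muscle was called in either direction here. Of the neuron markers 3 of 12 were higher and 1 lower, of the mesenchyme markers 2 of 12 were higher and 1 lower, and of the fat markers 1 of 6 was higher and 1 lower. The neuron sum was 46.8 to 56.8 CPM in E13.5 MM and 30.7 to 44.8 CPM in E13.5 VM, and the muscle sum 118 to 435 CPM and 145 to 586 CPM. In the same order the mesenchyme sum was 18425 to 23504 CPM and 15194 to 21346 CPM, and the fat sum 70.6 to 125 CPM and 58.8 to 146 CPM. Their part in the results was not tested.

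Between the bud stage and the sprouting stage, the mammary mesenchyme gained semaphorin transcripts. Sema3b, Sema3c, Sema3d, Sema3e, Sema4a, Sema4d and Sema7a rose, as did Slit3, Ntn4, Unc5b and Unc5c and the plexins Plxnc1 and Plxnd1, and Slit2, Nrp1, Sema5a, Sema4f and Sema4g fell. Called higher at E16.5 were 13 of 41 members (31.7%) against 12.6% of all tested genes, and called lower were 5 of 41 (12.2%) against 7.16%. The median log2 fold change was 0.30 over the members and 0.01 over all genes. Leukocyte markers (11 of 12), epithelium markers (9 of 12), muscle markers (9 of 12, with 1 lower) and fat markers (6 of 6) were higher at E16.5 too, as were 7 of 12 mesenchyme markers, while 5 of 12 neuron markers and 5 of 8 glia markers were lower. The summed epithelium level was 6.46 to 18.5 CPM at E13.5 and 18.8 to 128 CPM at E16.5, that of leukocytes 388 to 449 CPM and 667 to 767 CPM, that of muscle 118 to 435 CPM and 818 to 3582 CPM, and that of fat 70.6 to 125 CPM and 160 to 397 CPM. The mesenchyme sum was 18425 to 23504 CPM and 49526 to 54921 CPM, the neuron sum 46.8 to 56.8 CPM and 30.2 to 34.0 CPM, and the glia sum 112 to 135 CPM and 82.0 to 101 CPM. Their part in the results was not tested. Since the sex of the E13.5 pools is not given, stage and sex cannot be told apart.

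Within the E16.5 mammary region, the fat pad precursor held less of 8 of the 16 guidance receptors than the mammary mesenchyme. All 3 netrin receptors, both Robos, Plxna3, Plxna4 and Plxnb1 were lower in E16.5 FP, and 0 receptors were higher. Of the 25 ligands 5 were lower (Sema3a, Sema3f, Slit2, Slit3 and Ntn4) and Sema5b was higher. Called lower were thus 13 of 41 members (31.7%) against 7.34% of all tested genes, and called higher was 1 of 41 (2.44%) against 6.78%. The median log2 fold change was -0.31 over the members and 0.00 over all genes. The count of 1 higher became 2 without E16.5 FP replicate 1 or without replicate 2, when Sema3g passed the thresholds. All 12 muscle markers and all 6 fat markers were higher in E16.5 FP, 9 of 12 mesenchyme markers and 6 of 12 epithelium markers were lower, 1 of 12 neuron markers was lower, and of 8 glia markers 2 were higher and 2 lower. The summed muscle level ran from 2197 CPM in E16.5 FP replicate 5 to 21750 CPM in replicate 2, against 818 to 3582 CPM in E16.5 MM, the summed mesenchyme level was 28786 to 33664 CPM against 49526 to 54921 CPM, the summed fat level was 1018 to 1837 CPM against 160 to 397 CPM, and the summed epithelium level was 10.4 to 51.3 CPM against 18.8 to 128 CPM. The summed neuron level was 14.8 to 22.7 CPM in E16.5 FP against 30.2 to 34.0 CPM in E16.5 MM, without overlap, and the summed glia level 93.2 to 117 CPM against 82.0 to 101 CPM. By their means per kb the Robos were 3.75-fold, the Slits 3.06-fold and the netrin receptors 4.12-fold lower in sum in E16.5 FP. Of 12 endothelium markers 1 was higher in E16.5 FP (Tek) and 0 lower. Their summed level was 1221 to 1491 CPM in E16.5 FP against 994 to 1213 CPM in E16.5 MM, without overlap. The part of mesenchyme, muscle, fat, epithelium, neurons, glia and endothelium in these results was not tested.

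**Figure D2:**
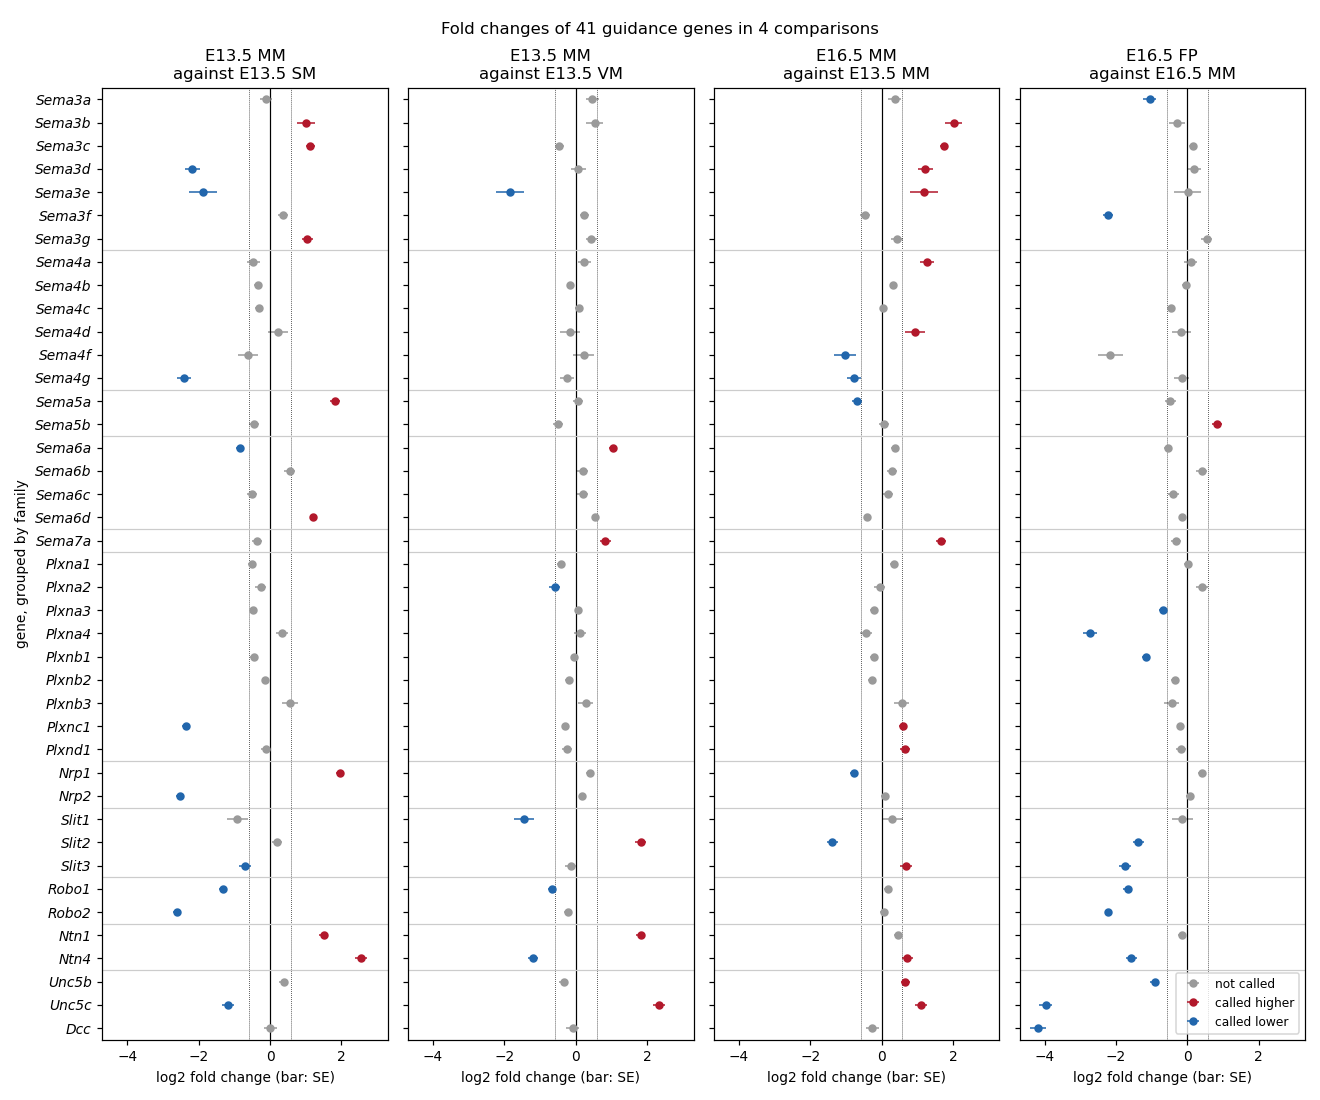
Log2 fold change of each of the 41 genes (rows) in the 4 comparisons (panels), with bars for the SE, colour for the call and dotted lines at the fold threshold of 0.58 in either direction. In E16.5 FP against E16.5 MM 13 genes are called lower and 1 higher, while in E16.5 MM against E13.5 MM 13 are called higher and 5 lower.

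Of the 41 members, 34 were called in at least 1 comparison, where 44.5% of all tested genes were. Ntn4 and Unc5c were called in all 4, as were 1.35% of all tested genes. E13.5 SM held the highest mean of 17 of the 41 members, where 32.3% of all tested genes had theirs there. Of the 41, 9 were highest in E13.5 SM and clear of every library of the next tissue, as were 12.9% of all tested genes. E16.5 MM was highest for 8 members (17.0% of all genes), E13.5 MM for 6 (11.1%), E13.5 VM for 5 (16.4%) and E16.5 FP for 5 (23.3%).

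Class 3 semaphorins are the secreted ones. At E13.5 their summed level was 40.1 ± 4.46 CPM per kb in the skin, 39.2 ± 3.25 in the mammary and 34.3 ± 4.37 in the salivary mesenchyme. At E16.5 the sum stood at 79.8 ± 5.69 in MM and 76.8 ± 4.54 in FP. Sema3c, which signals through Plxnd1 with either neuropilin and is known from the outflow tract of the heart, made up 61.7% of that sum in E16.5 MM and 71.8% in E16.5 FP, but at E13.5 37.4% in MM and 19.6% in SM. The 5 E13.5 MM pools held 3466, 2823, 2402, 2474 and 2759 normalized counts of Sema3c, and the 5 E16.5 MM pools 9569.8, 8727, 8427, 10982 and 8963. All E16.5 MM pools thus lay far above all E13.5 MM pools, with a log2 fold change of 1.75 ± 0.12 (SE) and an adjusted p of 2.1e-11. E16.5 FP, at 9447 to 11989, overlapped with E16.5 MM and was not called different from it (log2 fold change 0.16 ± 0.12, adjusted p = 0.326). Against E13.5 SM, at 1026 to 1680.5, Sema3c was higher in E13.5 MM by 1.13 ± 0.12 on the log2 scale (adjusted p = 1.26e-08).

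Sema3b showed the largest rise between the stages. Its normalized counts were 90.5, 119.6, 123, 119 and 119 in the E13.5 MM pools and 744, 368, 366, 617 and 229 in the E16.5 MM pools. The stages did not overlap, although the E16.5 pools were more than 3-fold apart among themselves, and the log2 fold change was 2.02 ± 0.24 (adjusted p = 1.81e-07). It was also higher in E13.5 MM than in the salivary gland, by 1.01 ± 0.25 (adjusted p = 0.00107). Sema3e, which unlike its relatives can bind Plxnd1 without a neuropilin, had its lowest level in E13.5 MM. The pools there held 27.1, 50.7, 42.9, 29.8 and 30.1 normalized counts, against 160.4, 264, 70.7, 97.3 and 63.9 in the E13.5 VM pools. Every E13.5 VM pool lay above every E13.5 MM pool, with the VM pools spread over a 4-fold range, and the log2 fold change was -1.85 ± 0.39 (adjusted p = 0.00144). Sema3e was lower than in the salivary gland as well (log2 fold change -1.89 ± 0.39, adjusted p = 0.000203), and rose to E16.5 MM by 1.18 ± 0.39 (adjusted p = 0.0155).

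Sema3f, the main Nrp2 ligand of the class, was the class 3 gene that set the fat pad precursor apart. Its normalized counts were 944, 891, 1079.9, 869.9 and 1322 in the E16.5 MM pools and 206, 315, 175, 168 and 229 in the E16.5 FP pools. All 5 FP pools lay below all other libraries of the series, and the log2 fold change between the E16.5 tissues was -2.22 ± 0.14 (adjusted p = 7.11e-12). Sema3a, the archetypal repellent of growing axons, was also lower in E16.5 FP (log2 fold change -1.05 ± 0.17, adjusted p = 4.08e-05). Sema3d was lower in E13.5 MM than in the salivary gland (log2 fold change -2.18 ± 0.21, adjusted p = 3.66e-09), and rose to E16.5 MM by 1.22 ± 0.20 (adjusted p = 3.14e-05). Sema3g, another ligand read through Nrp2, was higher in E13.5 MM than in the salivary gland by 1.05 ± 0.17 (adjusted p = 5.76e-06).

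The membrane semaphorins of class 4 were called in few comparisons. Sema4g, a class 4 ligand of Plxnb2, had 886, 716, 1005, 1325 and 807 normalized counts in the E13.5 SM pools and 162, 207, 238, 161 and 126 in the E13.5 MM pools. The salivary pools lay above every other library of the series, with a log2 fold change of -2.41 ± 0.19 (adjusted p = 8.46e-11). Sema4g fell further between the stages of MM, to 112, 104, 73.4, 96.0 and 138 at E16.5, where 1 of the earlier pools overlapped with the later ones (log2 fold change -0.76 ± 0.20, adjusted p = 0.00247). Sema4a, known from immune cells, went from 39.6, 35.4, 46.9, 47.0 and 50.4 in the E13.5 MM pools to 146, 88.7, 90.2, 119 and 87.7 in the E16.5 MM pools. The stages did not overlap, and the log2 fold change was 1.27 ± 0.19 (adjusted p = 3.78e-06). Sema4d, the Plxnb1 ligand, rose by 0.93 ± 0.27 with overlapping pools (adjusted p = 0.00612), and Sema4f fell, with overlap too (log2 fold change -1.02 ± 0.30, adjusted p = 0.00762). In E16.5 FP, Sema4f had 3.34, 13.9, 13.4, 3.11 and 10.6 normalized counts against 34.4, 28.8, 21.6, 69.4 and 44.3 in the E16.5 MM pools (log2 fold change -2.16 ± 0.35, adjusted p = 2.88e-05). This was not a call, because both means were below 50.

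Sema5a, whose extracellular part carries thrombospondin repeats, had the highest level per kb of the membrane semaphorins in the trunk tissues. Its normalized counts were 18669, 18492, 15943, 15833 and 16356 in the E13.5 MM pools and 5068, 3458, 4431, 5516 and 5647 in the E13.5 SM pools. No pools overlapped, and the log2 fold change was 1.82 ± 0.15 (adjusted p = 1.3e-10). By E16.5 the MM pools held 10946, 10375, 9478, 9159 and 12852, all below the E13.5 MM pools, with a log2 fold change of -0.69 ± 0.15 (adjusted p = 0.000363). Sema5b, its scarcer relative, was the only member called higher in E16.5 FP than in MM of that age. The FP pools held 434, 551, 353, 451 and 417 normalized counts and the MM pools 267, 241, 265, 246 and 226. All FP pools lay above all MM pools (log2 fold change 0.83 ± 0.14, adjusted p = 3.97e-05).

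Sema6a and Sema6d are transmembrane ligands of the A plexins, and they were ordered oppositely between the 2 glands. Sema6a had 745, 665, 661, 700.0 and 705 normalized counts in the E13.5 VM pools, 1498, 1435, 1549, 1288 and 1314 in the E13.5 MM pools and 2544, 2159.8, 2688, 2769 and 2598 in the E13.5 SM pools. The 3 tissues did not overlap, with log2 fold changes of 1.03 ± 0.10 for E13.5 MM against E13.5 VM (adjusted p = 2.79e-08) and -0.85 ± 0.10 against E13.5 SM (adjusted p = 4.63e-08). Sema6d was higher in E13.5 MM than in the salivary gland by 1.21 ± 0.08 (adjusted p = 3.81e-12). Sema7a, which is anchored by a lipid and binds Plxnc1 and integrins, had 79.2, 80.4, 84.9, 69.7 and 81.3 normalized counts in the E13.5 MM pools and 263, 257, 261, 172 and 294 in the E16.5 MM pools. The lowest later pool was above the highest earlier one (log2 fold change 1.66 ± 0.14, adjusted p = 1.08e-09). It was higher in E13.5 MM than in ventral skin by 0.82 ± 0.15 (adjusted p = 0.000252).

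Plexins transmit the semaphorin signal into the cell. At E13.5 their summed level was 90.8 ± 7.40 CPM per kb in VM, 78.4 ± 5.13 in MM and 101 ± 14.8 in SM, and at E16.5 it was 83.8 ± 7.07 in MM and 68.6 ± 11.5 in FP. Plxnb2, the receptor of several class 4 semaphorins, took from 30.6% to 41.5% of that sum and was called in no comparison. Plxnc1, the Sema7a receptor, had 3021, 2962, 3537, 3712 and 3017 normalized counts in the E13.5 SM pools and 651, 635, 738, 573 and 553 in the E13.5 MM pools. All salivary pools lay above all other libraries of the series (log2 fold change -2.37 ± 0.11, adjusted p = 1.63e-15). Its rise between the stages of MM, by 0.59 ± 0.11 (adjusted p = 5.86e-05), sat at the fold threshold: the call was lost at 0.57 without E13.5 MM replicate 4, 0.56 without replicate 5, 0.57 without E16.5 MM replicate 2, 0.52 without replicate 5, and 0.55 with no expression filter. Plxnd1, which reads Sema3c and Sema3e and is abundant in endothelium, rose by 0.65 ± 0.14 (adjusted p = 0.000335). In the same comparison 2 of the 12 endothelium markers were called higher and 0 lower, with summed levels of 789 to 974 CPM at E13.5 and 994 to 1213 CPM at E16.5, and their part in this value was not tested.

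Of the A plexins, which pair with neuropilins, Plxna4 differed most. Its normalized counts were 1155, 1324, 1133, 1248 and 1880.4 in the E16.5 MM pools and 249, 218, 177, 177 and 197 in the E16.5 FP pools. All FP pools lay below all other libraries of the series, with a log2 fold change of -2.72 ± 0.19 (adjusted p = 2.97e-11). Plxna3 and Plxnb1 were lower in E16.5 FP as well, with log2 fold changes of -0.69 ± 0.11 (adjusted p = 2.06e-05) and -1.15 ± 0.11 (adjusted p = 7.26e-09). Plxna2, a receptor of Sema6a, had 1791, 1878, 1884, 2267 and 1963 normalized counts in the E13.5 VM pools and 1185, 1239, 1484, 1368 and 1226 in the E13.5 MM pools. The pools did not overlap, and the log2 fold change was -0.59 ± 0.16 (adjusted p = 0.0107). That call sat close to the fold threshold: the value was -0.53 without E13.5 VM replicate 4, -0.57 without replicate 5, -0.55 without E13.5 MM replicate 1, -0.56 without replicate 2 or 5, and -0.57 with no expression filter, none of them a call.

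Neuropilins are co-receptors that also bind vascular growth factors, and the 2 genes were exchanged between the trunk tissues and the salivary gland. Nrp2 made up 20.1% of the neuropilin level per kb in MM and 22.6% in VM at E13.5, and 31.3% in MM and 26.6% in FP at E16.5, whereas it made up 85.0% in E13.5 SM. With the longest transcript as the gene length, Nrp2 was at 78.8% in E13.5 SM and at 14.2% to 23.0% elsewhere. Nrp2, whose GC-rich upstream stretch is printed above, had 20418, 19844, 22400.1, 25397 and 21582 normalized counts in the E13.5 SM pools and 4188, 4056, 4064, 3284 and 3408 in the E13.5 MM pools. No salivary pool came near the other 20 libraries, of which the highest held 5569, and the log2 fold change was -2.53 ± 0.12 (adjusted p = 1.94e-15). Nrp1 had 11672, 13307, 10111, 12967 and 14238 normalized counts in the E13.5 MM pools and 3470.4, 3115, 3118, 2862 and 3444 in the E13.5 SM pools. Here every salivary pool was the lower one (log2 fold change 1.96 ± 0.11, adjusted p = 1.03e-13). Nrp1 then fell to 8306, 7571, 7676, 6282 and 6608 in the E16.5 MM pools, all below the earlier pools (log2 fold change -0.77 ± 0.11, adjusted p = 2.17e-06). Nrp2 was not called in the other 3 comparisons, with mean normalized counts of 3339.9 to 4233 in the trunk tissues.

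**Figure D3:**
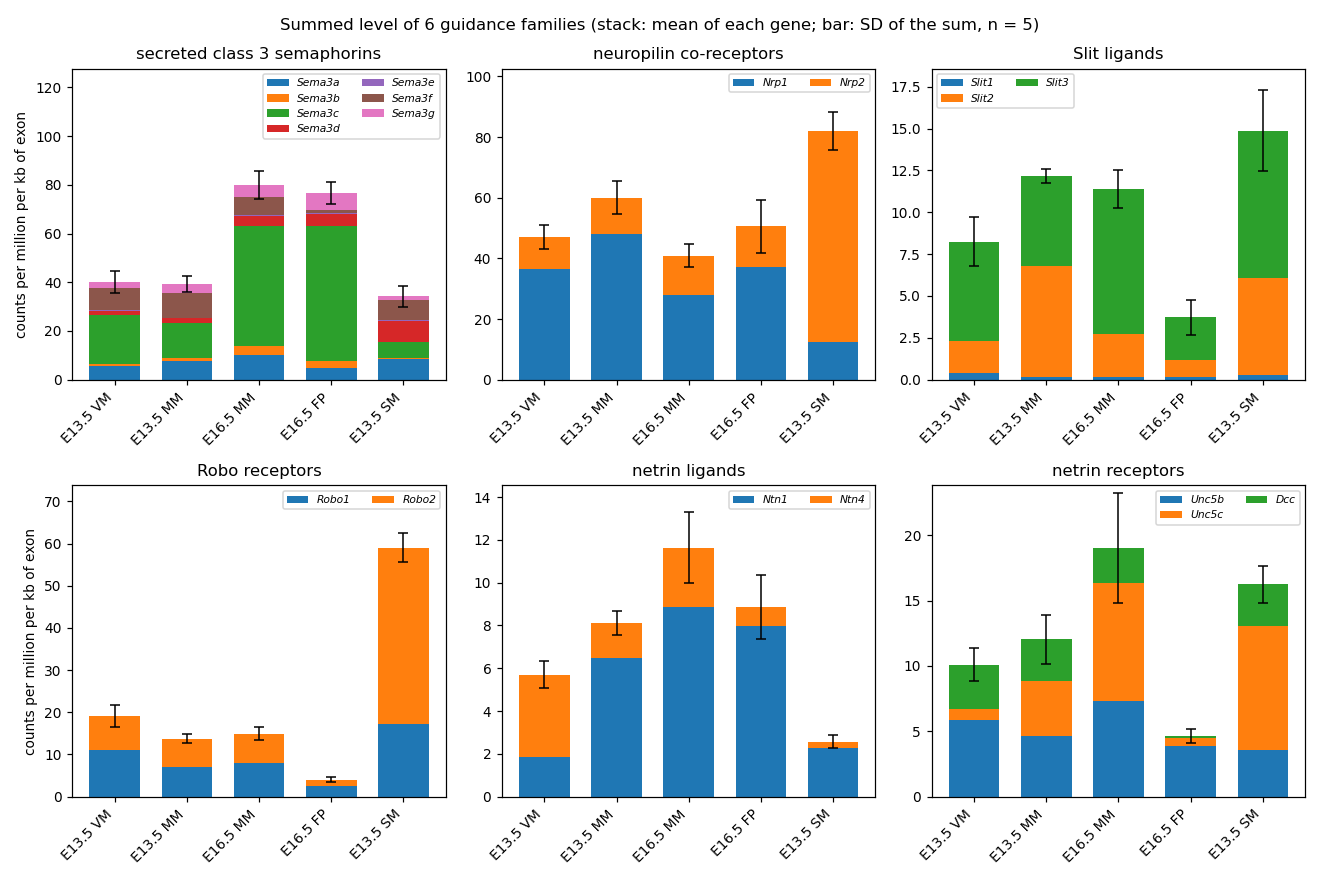
Summed level of 6 guidance families in CPM per kb of exon (y axis, from 0) in the 5 tissues (x axis), stacked by gene, with the SD of the sum over 5 pools. The neuropilin bar is mostly Nrp1 in 4 tissues and mostly Nrp2 in E13.5 SM, and the Robo sum falls from 59.0 in that tissue to 3.99 in E16.5 FP.

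Slits are large secreted repellents. Slit2 was high in the early mammary mesenchyme and in the salivary one. Its normalized counts were 3929.9, 4119, 4754, 4301 and 5291 in the E13.5 MM pools, 1393, 1145, 1141, 1504 and 1166 in the E13.5 VM pools and 1751, 1936, 1728, 1322 and 1880.4 in the E16.5 MM pools. Every E13.5 MM pool lay above every pool of the skin and of the later mammary mesenchyme, with log2 fold changes of 1.82 ± 0.15 against E13.5 VM (adjusted p = 4.51e-09) and -1.38 ± 0.15 between the stages of MM (adjusted p = 8.08e-08). It was lower again in E16.5 FP than in MM of that age, at 546, 842, 629, 462 and 851 (log2 fold change -1.37 ± 0.15, adjusted p = 1.7e-07). E13.5 SM, at 2930.5 to 4863, overlapped with E13.5 MM (log2 fold change 0.19 ± 0.15, adjusted p = 0.264). Slit3 moved otherwise. It was lower in E13.5 MM than in the salivary gland (log2 fold change -0.71 ± 0.17, adjusted p = 0.000751), rose to E16.5 MM by 0.68 ± 0.17 (adjusted p = 0.00155), and was lower in E16.5 FP (log2 fold change -1.75 ± 0.17, adjusted p = 1.61e-08). Per kb, Slit2 was 54.5% of the Slit level in E13.5 MM and 22.4% in E16.5 MM, where Slit3 led. With the longest transcript as the length the Slit2 shares were 72.5% and 38.9%, and in E13.5 SM the leading Slit was then Slit2 and not Slit3. Slit1, the scarcest, was lower in E13.5 MM than in the skin (log2 fold change -1.45 ± 0.28, adjusted p = 0.000586) at means of 23.7 ± 5.89 and 65.4 ± 5.28 normalized counts (SD). That call was lost when the count threshold was applied to the mean of both tissues.

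Robo1 and Robo2, the Slit receptors, spanned the widest range of the families. Their summed level was 59.0 ± 3.39 CPM per kb in SM, 19.1 ± 2.58 in VM and 13.7 ± 1.01 in MM at E13.5, and 15.0 ± 1.45 in MM and 3.99 ± 0.640 in FP at E16.5, a 14.8-fold range from the highest to the lowest tissue. Robo2 had 16658, 19566, 20789, 18720.2 and 18420.3 normalized counts in the E13.5 SM pools and 2966, 3319, 2954, 3274 and 2878 in the E13.5 MM pools. The lowest salivary pool held more than 3 times the highest of all other libraries, 4588 in an E13.5 VM pool, and the log2 fold change was -2.61 ± 0.10 (adjusted p = 1.18e-16). In E16.5 FP the pools held 653, 851, 617, 639 and 689.5 against 3285, 2881, 3074, 3079 and 3694 in the E16.5 MM pools (log2 fold change -2.21 ± 0.10, adjusted p = 1.51e-14). Robo1 had 3117, 3493, 3034, 2834 and 2689.8 normalized counts in the E13.5 MM pools and 4614, 5943, 3945, 5498 and 4159.9 in the E13.5 VM pools. The skin pools were all higher (log2 fold change -0.67 ± 0.11, adjusted p = 0.000119). Robo1 was also lower in E13.5 MM than in the salivary gland (log2 fold change -1.32 ± 0.12, adjusted p = 3.83e-10) and in E16.5 FP than in MM of that age (log2 fold change -1.68 ± 0.12, adjusted p = 2.82e-11). Neither Robo was called between the stages of MM.

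The netrin ligands in the list were Ntn1 and Ntn4, and of these Ntn4 was called in all 4 comparisons and Ntn1 in 2. Ntn1, the founding netrin, had 1008, 1060.4, 1203, 1124 and 986 normalized counts in the E13.5 MM pools, 356, 288, 313, 294 and 277 in the E13.5 VM pools and 414, 389, 303, 357 and 438 in the E13.5 SM pools. All mammary pools lay above all pools of the other 2 tissues, with log2 fold changes of 1.82 ± 0.12 against E13.5 VM (adjusted p = 9.02e-11) and 1.5 ± 0.12 against E13.5 SM (adjusted p = 8.85e-11). Between the stages of MM the log2 fold change of Ntn1 was 0.46 ± 0.12 (adjusted p = 0.0024), below the fold threshold, and in E16.5 FP against E16.5 MM it was -0.16 ± 0.12 with overlapping pools (adjusted p = 0.344). Ntn4, a netrin built like a laminin chain and found in basement membranes, had less level per kb than Ntn1 in every tissue but the skin. Its normalized counts were 399, 446, 341, 423 and 309 in the E13.5 VM pools, 163, 153, 173, 170.0 and 172 in the E13.5 MM pools and 27.8, 24.9, 31.8, 25.2 and 31.8 in the E13.5 SM pools. The 3 tissues were fully separate, with log2 fold changes of -1.21 ± 0.15 for E13.5 MM against E13.5 VM (adjusted p = 9.83e-07) and 2.55 ± 0.16 against E13.5 SM (adjusted p = 1.09e-12). It rose to E16.5 MM by 0.72 ± 0.15 (adjusted p = 0.000228) and was lower in E16.5 FP (log2 fold change -1.57 ± 0.15, adjusted p = 7.91e-09). Ntn1 was thus the leading netrin per kb in 4 tissues, at 76.3% to 89.6% of the sum, and Ntn4 in E13.5 VM, where Ntn1 made up 32.2%.

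Netrin receptors decide whether a netrin attracts or repels, and all 3 in the list were lower in E16.5 FP than in MM of that age. Dcc, the attractive receptor, had 979.9, 1206, 619, 575 and 1307 normalized counts in the E16.5 MM pools and 43.4, 76.4, 39.0, 47.7 and 47.6 in the E16.5 FP pools. The FP pools lay below all other libraries of the series, of which the lowest held 575, and the log2 fold change was -4.19 ± 0.23 (adjusted p = 8.22e-13), the largest of any member. In the other 3 comparisons Dcc was not called, with E13.5 means of 1199 ± 207 normalized counts (SD) in VM, 1124 ± 145 in MM and 1121 ± 143 in SM. Unc5c, a repulsive receptor, was called in every comparison. Its pools held 411, 460.2, 451, 443 and 348 normalized counts in the E13.5 VM pools and 2965, 2532, 1907, 1536 and 1699.8 in the E13.5 MM pools. At E16.5 they held 4776, 5499.9, 4237, 2844 and 5582 in the E16.5 MM pools and 299, 349, 249, 294 and 272 in the E16.5 FP pools. The skin and fat pad pools were low throughout and the mammary pools high at both stages, with log2 fold changes of 2.33 ± 0.17 for E13.5 MM against E13.5 VM (adjusted p = 7.83e-10) and -3.97 ± 0.19 for E16.5 FP against E16.5 MM (adjusted p = 4.75e-14). Between the stages of MM the pools overlapped by 1 at each stage, with a rise of 1.11 ± 0.16 (adjusted p = 6.41e-06), and E13.5 SM was higher than E13.5 MM (log2 fold change -1.18 ± 0.17, adjusted p = 1.28e-06). Unc5b, a receptor of vessels as well as axons, rose between the stages of MM by 0.67 ± 0.12 (adjusted p = 9.28e-05) and was lower in E16.5 FP (log2 fold change -0.91 ± 0.13, adjusted p = 2.56e-06).

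**Figure D4:**
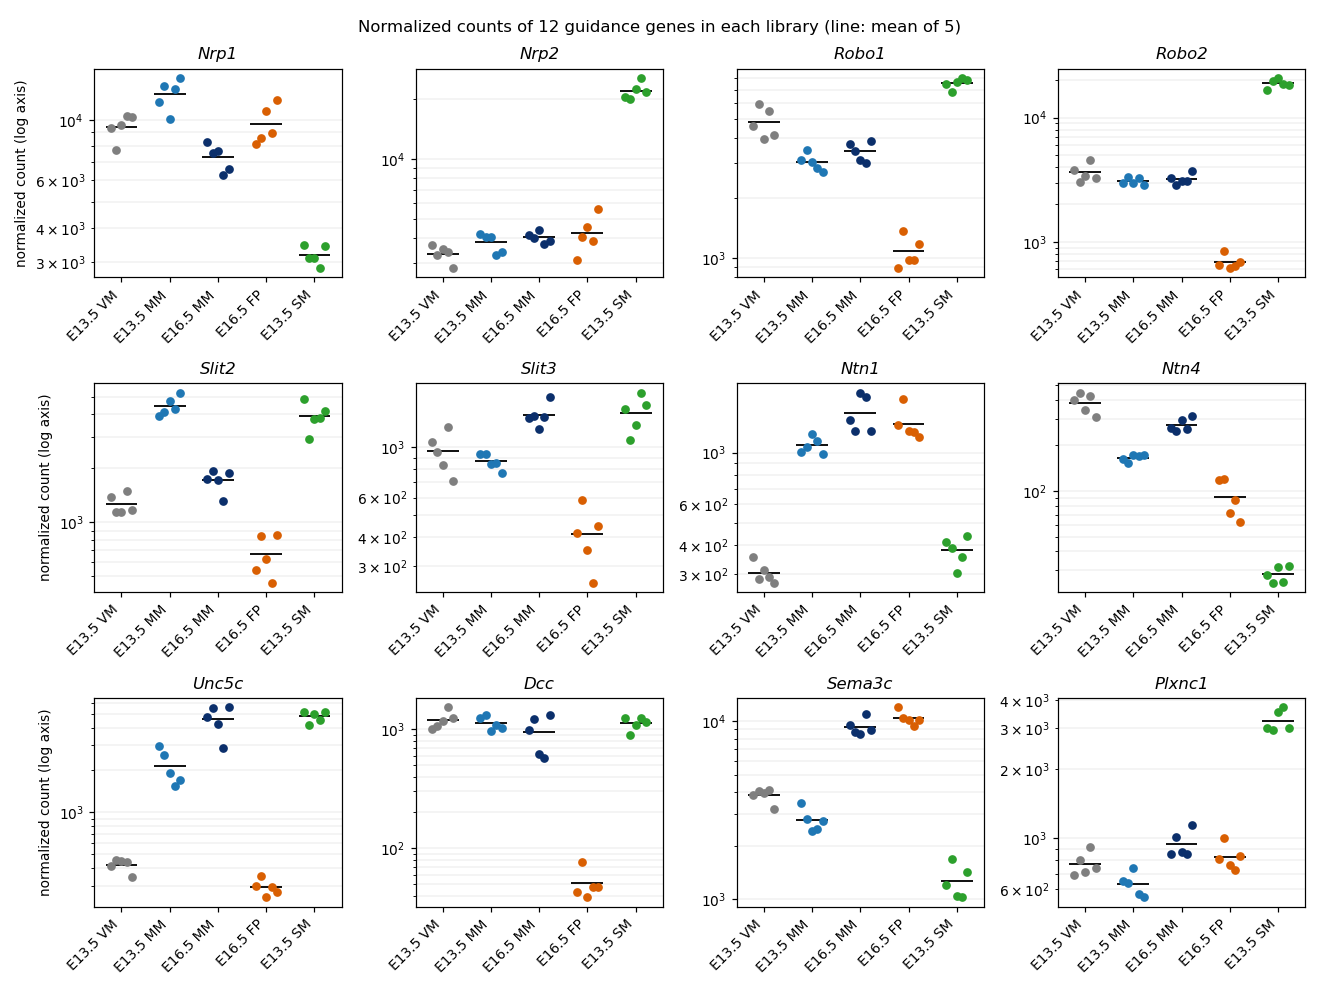
Normalized count (log axis) of 12 guidance genes in each library, with points for the 5 pools of a tissue and a line for their mean. Robo2 and Nrp2 are high in the 5 E13.5 SM pools alone, and Slit2 is high in the E13.5 MM and E13.5 SM pools. Dcc is low in the 5 E16.5 FP pools alone, and Unc5c is low in the E16.5 FP and E13.5 VM pools.

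Ligands and receptors that bind each other were set side by side in 33 pairs. Within E13.5 MM, Slit2 stood at 6.63 ± 0.811 CPM per kb beside Robo1 at 6.92 ± 0.70 and Robo2 at 6.83 ± 0.450. In E13.5 SM Slit2 was at 5.80 ± 1.04 beside Robo2 at 41.8 ± 3.38, so that the ligand overlapped between these tissues and the receptor did not. In E16.5 FP both sides were low, with Slit2 at 0.987 ± 0.259, Slit3 at 2.56 ± 0.765, Robo1 at 2.46 ± 0.443 and Robo2 at 1.53 ± 0.209 CPM per kb. Ntn1 parted from Dcc and Unc5c in the same tissue, and less so from Unc5b. At E16.5 Ntn1 stood at 7.95 ± 1.29 CPM per kb in FP and 8.87 ± 1.64 in MM. In the same order Dcc was at 0.145 ± 0.0422 and 2.68 ± 0.952, Unc5c at 0.576 ± 0.0739 and 9.03 ± 2.21, and Unc5b at 3.90 ± 0.526 and 7.33 ± 1.16. Unc5b made up 84.4% of the netrin receptor level per kb in E16.5 FP. Sema3c and Plxnd1 rose together between the stages of MM, from 14.7 ± 2.22 to 49.2 ± 5.34 CPM per kb for the ligand and from 16.9 ± 2.80 to 26.5 ± 3.02 for the receptor, while Nrp1 fell from 48.0 ± 6.17 to 28.1 ± 3.19. Sema7a and Plxnc1 stood at 2.85 ± 0.521 and 4.26 ± 0.582 CPM per kb in E16.5 MM and at 1.17 ± 0.246 and 14.7 ± 1.57 in E13.5 SM.

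By calls, E13.5 MM against E13.5 SM had both partners higher in 1 of the 33 pairs (Sema3c with Nrp1), both lower in 2 (Slit3 with each Robo) and opposite calls in 4 (Sema3c with Nrp2, Sema3d with Nrp1, Sema3g with Nrp2 and Ntn1 with Unc5c). E13.5 MM against E13.5 VM had both higher in 1 pair (Ntn1 with Unc5c), both lower in 1 (Slit1 with Robo1) and opposite calls in 2 (Sema6a with Plxna2 and Slit2 with Robo1). Between the stages of MM both partners rose in 4 pairs (Sema3c, Sema3d and Sema3e with Plxnd1, and Sema7a with Plxnc1), both fell in 0, and Sema3c and Sema3d went against Nrp1. In E16.5 FP against E16.5 MM both were lower in 7 pairs (Sema3a with Plxna3 and Plxna4, Sema3f with Plxna3, and Slit2 and Slit3 with each Robo), and both were higher or opposite in 0. In this order of comparisons, only the ligand was called in 10, 7, 9 and 4 pairs and only the receptor in 7, 2, 3 and 8. Neither partner was called in 9, 20, 15 and 14. The calls on Slit1 and Plxna2 against E13.5 VM and on Plxnc1 between the stages of MM were lost under some alternatives. The pairs counted with these calls depend on the settings in the same way. The pairs share partners, so their counts are not independent of each other or of the gene counts. The number of pairs expected from the gene counts was not worked out, so pairs called on both sides are not read as coordinated change.

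In no comparison were Sema4b, Sema4c, Sema6b, Sema6c, Plxna1, Plxnb2 and Plxnb3 called. Their mean normalized counts over the 5 tissues ran from 293 to 371 for Sema4b, from 620.5 to 1022 for Sema4c, from 125 to 293 for Sema6b and from 345 to 575 for Sema6c. Among the plexins the means ran from 2139 to 3065 for Plxna1, from 4302 to 7671 for Plxnb2 and from 57.0 to 124 for Plxnb3. Several of these differed at an adjusted p under 0.05 but below the fold threshold, for example Plxna1 in E13.5 MM against E13.5 SM (log2 fold change -0.52 ± 0.11, adjusted p = 0.000285). Of Plxna1 exon sequence 10.7% overlaps with a gene on the other strand, and whether the counting used strand is not stated. Sema4c, Plxnb1, Plxna4 and Unc5c also overlap with a gene on the other strand, and Sema4a, Plxnc1 and Nrp1 with one on their own strand, over a smaller share of exon.

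Other genes of the Slit, netrin and repulsive guidance molecule systems were counted as a list of 16, of which 15 were tested. In E13.5 MM against the salivary gland 3 were higher and 5 lower, among them Unc5a (log2 fold change -2.23 ± 0.31, adjusted p = 8.61e-07) and Ntng1, a membrane-anchored netrin (1.9 ± 0.19, adjusted p = 2.38e-09). Against E13.5 VM 0 were higher and 1 lower, Ntng1 (-0.88 ± 0.17, adjusted p = 0.000652). Between the stages of MM 1 was higher and 4 lower, led by Flrt3 (-3.05 ± 0.11, adjusted p = 3.92e-16) and Unc5d (-2.90 ± 0.17, adjusted p = 1.62e-12), which bind each other. In E16.5 FP against E16.5 MM 1 was higher and 5 lower, led by Unc5d (-3.36 ± 0.21, adjusted p = 6.92e-12), Flrt1 (-2.73 ± 0.19, adjusted p = 2.13e-11) and Ntng2 (-2.12 ± 0.31, adjusted p = 5.58e-06). Median log2 fold changes of the 15 were 0.13, 0.09, -0.12 and -0.46 in the 4 comparisons in this order. Of all tested genes 14.5%, 3.79%, 12.6% and 6.78% were called higher, and 15.6%, 2.66%, 7.16% and 7.34% lower. The counts of so short a list were not tested against these shares.

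From a list of 30 intracellular effectors of guidance receptors, such as the collapsin response mediators and the Mical oxidoreductases, E13.5 MM had 3 higher and 11 lower than the salivary gland, with Dpysl5 (-2.57 ± 0.37, adjusted p = 2.09e-06), Mical3 (-2.05 ± 0.12, adjusted p = 2.32e-13) and Crmp1 (-1.93 ± 0.13, adjusted p = 1.37e-12) changing most. In E13.5 MM against E13.5 VM 3 were higher and 0 lower, between the stages of MM 2 were higher and 4 lower, and for E16.5 FP against E16.5 MM 0 were higher and 2 lower. Their median log2 fold changes were -0.26, -0.11, 0.11 and -0.03. In the same order, 14.5%, 3.79%, 12.6% and 6.78% of all tested genes were called higher, and 15.6%, 2.66%, 7.16% and 7.34% lower. The counts of the 30 were not tested against these shares.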

How the data were processed

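The authors deposited a table of estimated counts. Reads had been checked with FastQC 0.11.8 and MultiQC 1.9, trimmed with Trimmomatic 0.39, cleared of ribosomal sequence and quantified by Salmon 0.99.0 against mm10, per the submitters' processing notes and the methods. The deposited values were whole numbers and were used as such. The annotation release and the use of strand are not given in the sources used here. Salmon divides reads among genes that share sequence, so paralogs and overlapping genes are uncertain. GENCODE M21 symbols were matched to the Ensembl identifiers, leaving 375 genes without a symbol (0.0805% of counts). All libraries differed from each other.

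TMM factors set the scale, and the test was the quasi-likelihood test of edgeR 4.0.16 (limma 3.58.1, R 4.3.3), with 1 mean per tissue, no covariate, robust dispersions, 20 residual degrees of freedom and filterByExpr. Benjamini-Hochberg adjustment ran over the 17657 genes tested. The SE came from the F statistic: the log2 fold change over its square root. CPM per kb used the union of exons. Values in every pool are given for the 4 called members with the largest change in each direction of a comparison among those with a mean above 100. Members, pairs and lists were chosen with earlier results of these data known.

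Replicate numbers did not come from a label that pairs pools. Simulated data were drawn for the E13.5 pair MM and SM and fitted for these 2 tissues alone, not with all 25 libraries as in the main fit. Calls were made for 42% of 50 genes changed 1.5-fold, 90% of 50 changed 2-fold and 92% of 50 changed 3-fold. Of 50 genes lowered to 0.5-fold 82% were called, and 99.98% of 15759 unchanged genes were not. Alternatives were DESeq2 1.42.0 (its Wald test, and its size factors inside edgeR), dropping the filter, fitting 2 tissues alone, a replicate block, other count and fold thresholds, each pool left out in turn, and the longest transcript as gene length. Tables were made with Python 3.11.15, pandas 2.3.3 and numpy 2.4.6, and figures with matplotlib 3.10.9.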

Additional observations from a re-analysis of the deposited data

Results flagged for a closer look

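In each tissue, the highest or lowest of the 5 pools was set against the others, gene by gene, and a pool was marked when its gap to the nearest pool was above 0.71 of the whole range (Dixon's 95% limit for 5 samples). Of 205 groups checked 12 were marked, where chance alone marks about 1 in 20. E16.5 FP replicate 2 was the highest pool in 4 of them, with normalized counts of 3729 for Plxna1, 5521 for Plxnb2, 1698 for Ntn1 and 76.4 for Dcc, against tissue means of 2747, 4302, 1325 and 50.8. It was also the E16.5 FP library with the highest summed muscle level, 21750 CPM, whose part in these values was not tested. In E13.5 SM, replicate 4 was highest for Sema3f at 1307 and Sema7a at 140.4 normalized counts, replicate 1 was highest for Slit1 at 64.6, and replicate 5 was lowest for Sema3g at 120.3. In E16.5 MM, replicate 4 was highest for Sema4d at 428 and replicate 5 for Plxna4 at 1880.4. In E13.5 MM, replicate 1 was lowest for Sema3b at 90.5 and replicate 2 highest for Plxnb3 at 106.2. The calls on the genes named here, in the comparisons that used the marked pool, were kept without it. Plxnb3 gained a call between the stages of MM without E13.5 MM replicate 2 (log2 fold change 0.66).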

How the results depend on the processing

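Of 164 fold changes (41 members in 4 comparisons) 60 were called. None of the 60 changed sign under any alternative, and 57 kept their call under all of them, the exceptions being Plxna2 and Slit1 (E13.5 MM against skin) and Plxnc1 (E16.5 MM against E13.5 MM). Calls were gained by 39, of which 37 gained one with no fold threshold. Without that threshold the counts were 19 lower in E13.5 MM than in the salivary gland (10 with it), 8 lower than in skin (5), 9 that fell between the stages of MM (5) and 5 higher in E16.5 FP (1). The shares of all tested genes were then 28.4%, 7.40%, 24.8% and 16.9%. Counts in the other directions grew as well, for example to 12 higher in E13.5 MM than in the salivary gland (8 with the threshold), where 25% of all tested genes were. Leaving out 1 pool gave 8 to 10 members higher and 10 to 12 lower in E13.5 MM than in the salivary gland. Against skin it gave 5 to 6 higher and 4 to 5 lower. Between the stages of MM 12 to 14 rose and 5 fell, and in E16.5 FP 1 to 2 were higher and 13 to 16 lower.

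The replicate numbers did not pair the pools: correlations of same-numbered pools' deviations ran from -0.16 to 0.29. Adding the number as a replicate block changed no call among the members, and turned the sign of Dcc in E13.5 MM against E13.5 SM to -0.00865 and of Sema3e in E16.5 FP against E16.5 MM to -0.0507. DESeq2 size factors moved the members' fold changes by a median of at most 0.03 on the log2 scale.

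In all, 12 fold changes that were not called, at most 0.17 in size, changed sign. Sema3e in E16.5 FP was at -0.00188 with no filter, and Plxna1 there at -0.00188 with the Wald test, -0.00197 with DESeq2 size factors and -0.00383 with no filter. With 1 pool left out the ranges were, in E13.5 MM against E13.5 SM, -0.22 to 0.0262 for Plxnd1 and -0.0723 to 0.0548 for Dcc. Against E13.5 VM they were -0.0878 to 0.26 for Sema3d, -0.34 to 0.14 for Sema4d, -0.0606 to 0.00284 for Plxnb1 and -0.14 to 0.00959 for Dcc. Between the stages of MM they were -0.00421 to 0.12 for Sema5b and -0.10 to 0.0209 for Plxna2, and in E16.5 FP against E16.5 MM -0.13 to 0.20 for Sema3e, -0.31 to 0.0788 for Sema4d, -0.14 to 0.0486 for Plxna1 and -0.0510 to 0.16 for Nrp2. The cause was not tested. Changes near 1.5-fold lie at the fold threshold, and 42% of those simulated were called. That share reflects the threshold itself and a fit of 2 tissues, so it does not measure the sensitivity of the main fit.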

Other observations

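Ephrins and Eph receptors, which signal between touching cells and sort tissues as well as axons, were counted beside the members. Among the 14 Eph receptors, Epha8 gave the largest difference, with a mean of 496 normalized counts in E13.5 MM, 2.77 in the salivary gland and 8.0 at E16.5 (log2 fold change 7.40 ± 0.46 against the salivary gland, adjusted p = 1.19e-12, and -5.94 ± 0.41 between the stages of MM, adjusted p = 3.7e-11). Epha4 was higher in E13.5 MM than in the salivary gland by 1.88 ± 0.15 (adjusted p = 5.89e-11) and lower in E16.5 FP (log2 fold change -2.55 ± 0.15, adjusted p = 1.97e-12). Ephb1 was higher in E13.5 MM than in ventral skin by 1.91 ± 0.25 (adjusted p = 2.69e-06) and fell between the stages of MM (log2 fold change -1.67 ± 0.25, adjusted p = 4.28e-06). In E13.5 MM against E13.5 SM 4 Eph receptors were higher and 2 lower, and against E13.5 VM 1 was higher and 0 lower. Between the stages of MM 1 was higher and 5 lower, and for E16.5 FP against E16.5 MM 0 were higher and 5 lower. Of all tested genes 14.5%, 3.79%, 12.6% and 6.78% were called higher in this order, and 15.6%, 2.66%, 7.16% and 7.34% lower. The counts of the 14 were not tested against these shares.

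Of the 8 ephrins, Efnb2 was lower and Efna3 higher in E13.5 MM than in the salivary gland, with log2 fold changes of -2.24 ± 0.19 (adjusted p = 7.79e-10) and 2.06 ± 0.16 (adjusted p = 4.87e-11). Efna5 was the 1 ephrin called against E13.5 VM, with -1.23 ± 0.27 (adjusted p = 0.00255). Between the stages of MM 0 rose and 3 fell, led by Efnb3 (-2.04 ± 0.12, adjusted p = 1.36e-12). In E16.5 FP against E16.5 MM 0 were higher and 5 lower, led by Efna3 (-3.99 ± 0.19, adjusted p = 1.67e-14). The all-gene shares given for the Eph receptors apply here too, and the counts of the 8 were not tested against them.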
